A study of Mus musculus with 3 samples.

Results

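Protein-coding genes that lie on opposite strands and run into each other at their 3′ ends were examined in mouse T-helper 1 (Th1) cells, CD4 helper T cells known for making interferon-gamma. A pair was taken when both genes were autosomal and protein-coding, when their exons shared at least 1 base, when neither gene lay inside the other, and when the plus-strand gene began at the lower coordinate. This gave 768 tail-to-tail pairs out of 4597 opposite-strand gene pairs with overlapping exons of any kind. The pairs held 1528 genes, which is 7.41% of the 20620 autosomal coding genes, and 8 of these genes belonged to more than 1 pair. No expression value entered the choice.

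The series holds 3 RNA sequencing libraries, biological replicates 1, 2 and 3 of 1 group, from primary Th1 cells of the C57BL/6NJ strain. Sex was not collected and age is unknown in the labels, no treatment or genotype beyond the strain is given, and the file headers add a time of 2 hours. The 3 biosamples share 1 donor entry, and the labels name no separate animals. The p-values given here hence rest on these 3 samples alone, and the spread between them may be technical. Those of single pairs also draw on a spread estimated over all pairs tested. They do not measure how closely the 3 libraries agree for that pair.

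Genes that converge can share the sequence of their ends, so that each mature RNA carries a stretch complementary to the other. Such natural sense and antisense partners are common in mammalian genomes, and they can only be told apart by a library that keeps the strand of the RNA. The end of most mRNAs is set by a hexamer, AATAAA or its frequent variant ATTAAA in DNA letters, which lies shortly before the site where the RNA is cut and the poly(A) tail is added.

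The annotated gene ends of the 5 pairs with the most counts are shown. Not all of them lie within the shared exonic bases. The end of Hnrnpab, for example, lies outside them. Each line gives the last 30 annotated bases of a gene on its own strand, 5′ to 3′, from GENCODE transcripts on GRCm38 (the mm10 build of the files), with AATAAA or ATTAAA in capitals.
Phykpl: tttaaatgtAATAAAaacaaaaccccgtct
Hnrnpab: gttttcttaAATAAAttgagggagaccttg
Tlcd1: tcaAATAAAtaactatagagaaaattgtgc
Rpl23a: ctaaatatatacttttttcaccataaataa
Tsr1: gcactttAATAAAagttgtatctgataact
Srr: cgccatctcttcAATAAAacttttgtttac
Tti2: tcttacatAATAAAgaaacatgtaaacatc
Mak16: tttcatataaatacacatagacaccacaaa
Cox20: agATTAAAaaactcaaacgtgtgtaaactg
Hnrnpu: ttcATTAAAgtaaaattgttctttcactga
A hexamer stood in 8 of these 10 ends. They lie, in the same order, at chr11:51604460-51604489 (plus), chr11:51600100-51600129 (minus), chr11:78181880-78181909 (plus), chr11:78180932-78180961 (minus), chr11:74909313-74909342 (plus), chr11:74906359-74906388 (minus), chr8:31164673-31164702 (plus), chr8:31159463-31159492 (minus), chr1:178322664-178322693 (plus) and chr1:178321108-178321137 (minus).

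Over all members, 1437 genes had an annotated transcript that ended at the gene end of the files. Within the last 40 bases, on the gene's own strand, AATAAA stood in 54.0% of them and either hexamer in 67.0%. The same shares were 56.8% and 69.5% over the 18874 autosomal coding genes with such an end. Of 688 pairs with both ends, 303 had a hexamer at both, 314 at 1 and 71 at neither.

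The shared stretches were short beside the genes. The overlap ran from 1 to 4652 exonic bases, with a median of 303.5 and quartiles of 96 and 804, and the median share of a gene's exon length inside it was 7.89%. In 350 pairs (45.6%) the overlap lay outside the coding sequence of both genes in every annotated transcript. In 302 pairs it touched coding sequence of 1 gene and in 116 that of both. In 270 pairs a member also had exons opposite a further gene. Among single pairs below, this is named only for the 10 with the most counts and those with a T cell gene. Pairs were found on all autosomes, most of them, 79, on chromosome 7, and member genes made up between 3.56% and 9.63% of the coding genes of an autosome.

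In 5 of the 6 tested pairs with the least overlap, only the last 1 or 2 bases of the genes coincided. In the other, Ttc19 and Ncor1, the end of Ncor1 lies inside the span of Ttc19, and their exons share 1 base. The next lines show the last 30 bases of the plus-strand gene in those 5 pairs, with the bases shared with the minus-strand partner in capitals.
Srrm2: tctgtcaaataaaaatgagaaatgcagtAA
Palm3: aattaaatgttaaggcactctggctttaAG
Sytl3: tgttctgatctcaataaacgctcaacacTG
Spg21: ttatttgataataaaggttgaaatatctgT
Treh: taccaaatatagctcagacttccacactCA
These windows are chr17:23824712-23824741, chr8:84030266-84030295, chr17:6738013-6738042, chr9:65488441-65488470 and chr9:44686276-44686305, all on the plus strand. The partners are Elob, Il27ra, Ezr, Ankdd1a and Phldb1.

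Every value depends on how strand was handled. The file headers name strand setting 1, under which a read pair goes to the gene on the strand of its first read. Whether this matches the orientation of the library is not given in the sources used here. If it does not, reads counted for a gene come from RNA of the other strand, and those within the shared bases from the other partner. No statement below of which partner was higher, in single pairs or in counts over a list, would then hold as worded. Comparisons of level between genes with and without opposed exons would be affected too. The mitochondrial genome, looked up after other values were seen, bears on this, since mt-Nd6 is the only mRNA on its strand and is usually a scarce one. Here mt-Nd6 had 31858, 22709 and 31808 counts in replicates 1, 2 and 3, and mt-Co1, on the other strand, 13937, 6092 and 4601. Of the 12 mRNAs on the strand of mt-Co1, 4 had no count in any library, mt-Co2, mt-Co3 and mt-Atp6 among them. Why these 4 had none beside the counts of mt-Co1 on the same strand was not tested. Per base mt-Nd6 stood 6.8-, 11.1- and 20.6-fold above the highest of the 12. Counts under another setting were not analysed here, and the part of the strand setting in the differences below was not tested. In what follows, a level of a gene means the count assigned to it under setting 1.

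The libraries carried 4442901, 3123869 and 2950658 counts in replicates 1, 2 and 3. The T cell genes Trac and Cd4 were present, with 2909, 926 and 1178 and with 1234, 636 and 659 counts. Of the genes that define Th1 cells, the transcription factor Tbx21 had 19, 7 and 11 counts and the cytokine Ifng 1, 2 and 0, at or under the usual limit of 3 counts, while the signal transducer Stat4 had 197, 80 and 88. Factors of other helper lineages were higher than Tbx21, with 491, 412 and 457 counts for Foxp3 of regulatory T cells and 64, 28 and 32 for Gata3 of Th2 cells. Both have exons opposite another gene, and Tbx21 has none. The counts assigned to Tbx21 and Ifng under setting 1 were thus low for the labelled cell type. With the strand question open, they need not mean that little of their RNA was present. Of 29 markers of other cell types, 16 had no count in any library, Lyz2 and Ncr1 among them, while the B cell gene Cd79a had 86, 133 and 83. The 27 markers outside the pairs summed to 58.9, 82.8 and 70.3 TPM (a level corrected for exon length and library total) in replicates 1, 2 and 3, and the 2 inside them, Pmel and Csf1r, to 619.9, 397.8 and 818.7. In such bulk samples fewer cells of a type and less RNA per cell cannot be told apart. Here neither can be told apart from an effect of the strand setting.

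Members of tail-to-tail pairs had higher levels than convergent coding genes that do not reach each other. The median member stood at 17.7, 12.7 and 13.8 TPM in replicates 1, 2 and 3, or 14.7 ± 2.63 (SD, n = 3). The comparison set was 611 pairs of adjacent convergent coding genes with a gap of 1 to 2000 bases and no exon opposite any gene. Their median was 3.41, 2.68 and 2.57 TPM, or 2.89 ± 0.457. On the scale of medians of log2(TPM + 0.1) the members lay above these neighbours by 2.31 ± 0.09 (SD, n = 3), which is 4.96-fold. The difference was 1.63 with only genes that had a count, and 3.38 with gaps up to 10000 bases. As first given, it had 1 sign in all 3 libraries, and p was 0.25 in the exact two-sided sign-flip permutation test, the smallest that 3 libraries allow. The strand setting bears on this difference, since every member has an opposed exon and the neighbours by choice have none. Its part was not tested.

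Coding genes that overlap at their starts were closer. The 764 genes of head-to-head pairs that are in no tail-to-tail pair had a median of 8.02 ± 1.22 TPM (SD, n = 3). Tail-to-tail members lay above them by 0.87 ± 0.10 on the log2 scale (SD, n = 3), with the same sign in all 3 libraries and the same exact permutation p of 0.25. At least 1 TPM in every library was reached by 79.3% of tail-to-tail members, 73.3% of head-to-head genes and 55.7% of the neighbours. Of the members, 102 had no count in any library and 1350 had a count in every one. Together the members took 19.3%, 19.99% and 22.5% of all counts, while they are 3.02% of the genes in the files.

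Levels rose as the gap between neighbours narrowed, and were higher at long than at short exonic overlaps. Overlap counts shared exonic bases only, so the gene ends of a pair can lie farther past each other. Neighbours separated by more than 2000 and up to 10000 bases had a median of 0.607 ± 0.062 TPM (SD, n = 3). The median was 2.25 ± 0.499 at gaps over 500 and up to 2000 bases, 3.35 ± 0.413 over 100 and up to 500, and 6.69 ± 1.97 at 1 to 100. Among overlapping pairs it was 10.4 ± 2.15 at 1 to 30 shared bases, 10.2 ± 2.30 at 31 to 100 and 11.8 ± 2.96 over 100 and up to 300, which do not differ beyond their spread. It was 18.6 ± 2.34 over 300 and up to 1000 and 19.6 ± 3.27 above 1000, again within the spread of each other. The order over the gap classes, and the step between the 3 shorter and the 2 longer overlap classes, held in each library. The strand setting bears on the gap classes and the overlap classes alike, and its part was not tested in either.

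**Figure D1:**
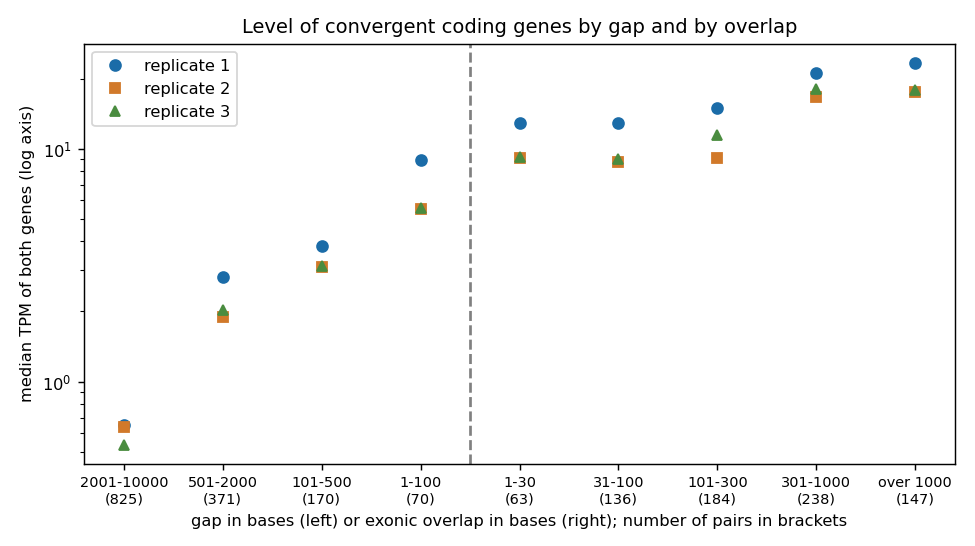
Median TPM of both genes of convergent coding pairs (log axis) by gap between the genes (left of the dashed line) and by exonic overlap (right), 1 point per library, with the number of pairs in brackets. The medians run from about 0.607 at the widest gaps to 19.6 at the longest overlaps.

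Pairs on both sides of the threshold of 1 shared base are given next. Ttc19 and Ncor1, a nuclear receptor corepressor, share 1 base, and had 479, 375 and 401 counts for Ttc19 and 2037, 2178 and 1699 for Ncor1. Just outside, Snf8, of the ESCRT-II sorting complex, and Ube2z, a ubiquitin-conjugating enzyme, are separated by 1 base and had 167, 110 and 95 and 463, 177 and 171 counts. Nelfe, of the pausing factor NELF, and complement factor gene Cfb, also 1 base apart, had 138, 61 and 106 and 3, 8 and 1.

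Within the overlapping pairs the count per base followed the overlap length only weakly. Across the 678 pairs with at least 30 counts in all, which are not replicates and share their libraries, Spearman's rho of the pair's count per exon base against overlap length was 0.15, 0.22 and 0.21 in replicates 1, 2 and 3, and Pearson's r on log2 values was 0.11, 0.18 and 0.18. The higher partner differed more between classes than the lower one. Its median over all members was 20.8 ± 5.05 TPM at 1 to 30 shared bases and 59.3 ± 4.55 above 1000 (SD, n = 3), against 4.50 ± 0.603 and 10.3 ± 2.25 for the lower partner. The median count of a pair, both partners summed, was 206, 115 and 109 at 1 to 30 shared bases and 944, 715 and 761 above 1000, and the summed exon length of the median pair was 6938 and 11713 bases in these classes.

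The 2 partners of a pair usually differed. Among the 678 tested pairs, 482 (71.1%) had partners whose counts per base differed in edgeR's quasi-likelihood test with Benjamini-Hochberg adjustment at 0.05. That share lies below the 81.4% called over all 2984 opposite-strand pairs tested in the same fit. Of the 678, the plus-strand partner was called higher in 246 (background 41.6% of pairs tested) and the minus-strand partner in 236 (background 39.8%). Again of the 678, the shorter partner was called higher in 290 (background 56% of pairs tested) and the longer in 192 (background 25.4%). Called or not, the shorter partner was the higher in 57.4% ± 0.518 of the tested pairs (SD, n = 3 libraries). By that measure it was 68.4% ± 1.76 of the other opposite-strand pairs tested and 57.8% ± 0.392 of the head-to-head coding pairs tested. The other 90 pairs were not tested, 36 of them without a count and 54 with fewer than 30. A pair could pass this minimum through 1 high partner alone.

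The size of the difference was below that of other opposite-strand pairs in all 3 libraries. The median absolute log2 ratio of counts per base took the values 1.78, 1.98 and 2.09 by library and averaged 1.95 ± 0.16 (SD, n = 3), which is 3.86-fold. It was 3.36 ± 0.45 over the 2306 other opposite-strand pairs tested and 2.10 ± 0.33, within the spread, over the 390 head-to-head coding pairs tested. A mean ratio of 16-fold or more, a log2 ratio of 4, was met by 78 tail-to-tail pairs (11.5%) and by 39.7% of the other pairs. The same partner was higher in all 3 libraries in 566 pairs (83.5%), against 89.4% of the other pairs. The median SD of a pair's log2 ratio over the libraries was 0.53.

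**Figure D2:**
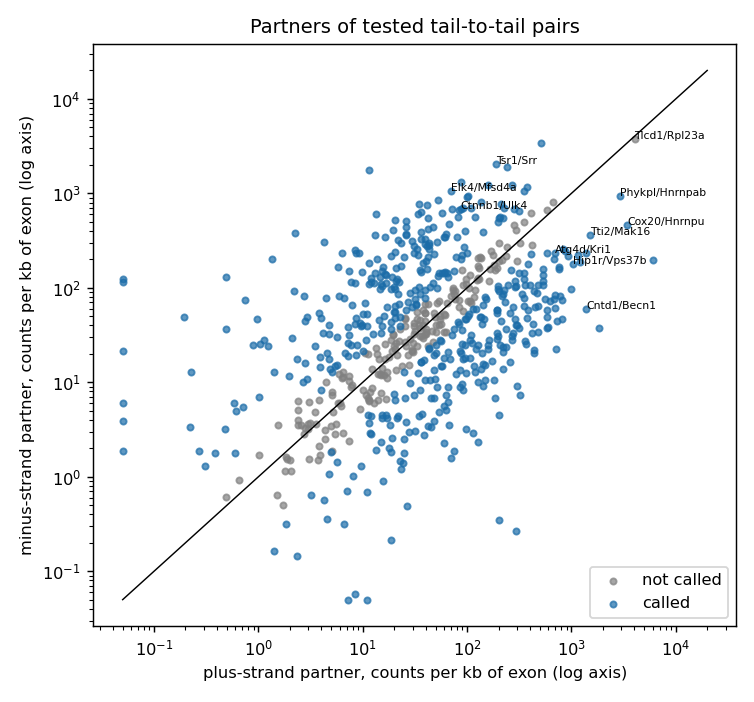
Counts per kb of exon of the plus-strand and the minus-strand partner (mean of 3 libraries, both axes log) for the 678 tested pairs, with values under 0.05 drawn at 0.05 and the line of equal values. Called pairs lie on both sides of the line, 246 below it with the plus-strand partner higher and 236 above it, and the 10 pairs with the most counts are named.

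Levels of the partners were related across pairs. Spearman's rho of the partners' counts per base was 0.50, 0.43 and 0.42 in replicates 1, 2 and 3 (Pearson's r on log2 values 0.49, 0.45 and 0.42). In head-to-head coding pairs rho was 0.38, 0.25 and 0.30, and in 448 neighbour pairs without overlap and with at least 30 counts -0.02, 0.22 and 0.10. These are descriptions over pairs within the same libraries. The choice of pairs by summed count bears on them, and rho over all 768 tail-to-tail pairs, uncounted ones included, was 0.65, 0.60 and 0.58. For head-to-head pairs and neighbours rho is given only after this choice, which left 390 of 448 and 448 of 611 pairs. Over the 426 pairs with at least 30 counts that oppose no further gene, rho was 0.51, 0.44 and 0.41.

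Longer overlaps went with larger differences between partners. The median absolute log2 ratio was 1.42 ± 0.15 at 31 to 100 shared bases, 1.46 ± 0.07 over 100 and up to 300, 2.23 ± 0.35 over 300 and up to 1000, and 2.85 ± 0.37 above 1000 (SD, n = 3). It was 1.81 ± 0.19 in the 54 tested pairs with 1 to 30 shared bases. Of the tested pairs, 74.1% were called in that shortest class, 58.7%, 62.3% and 78.3% in the next 3 and 78.5% in the longest. The pairs not called had a median overlap of 229 bases and the called pairs 394.

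**Figure D3:**
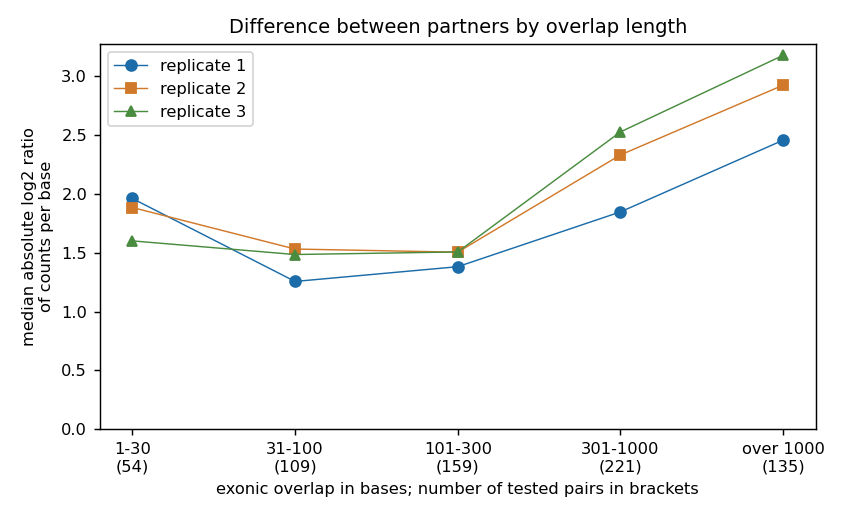
Median absolute log2 ratio of counts per base between the partners, by exonic overlap, 1 line per library, with the number of tested pairs in brackets. The ratio is lowest at 31 to 300 shared bases and reaches 2.46, 2.92 and 3.18 above 1000 bases in replicates 1, 2 and 3.

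Replicate 1, the deepest library, stood apart in this measure. The smallest absolute ratio of a pair was found in replicate 1 in 365 of 678 pairs (53.8%), in replicate 2 in 195 and in replicate 3 in 118. The lower partner of the tested pairs had a median of 30.8, 24.8 and 24.1 CPM (counts scaled to the library total) in replicates 1, 2 and 3, and the higher partner 86.3, 80.0 and 86.1. The higher partners held 14.7%, 16.2% and 18.4% of all counts and the lower ones 4.73%, 3.95% and 4.29%. Higher and lower were set from these same counts, so the values are a description.

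The 10 pairs with the most counts held 16.5% of the counts of all members. Phykpl, a lyase of hydroxylysine breakdown, and Hnrnpab, an RNA-binding protein of the hnRNP class, share 809 exonic bases on chromosome 11. Phykpl had 27810, 28848 and 28525 counts and Hnrnpab 3611, 1897 and 2230, with Phykpl higher in every library. Per base the log2 ratio of Phykpl to Hnrnpab was 1.71 ± 0.51 (SD, n = 3; edgeR, adjusted p = 0.000253). Tlcd1 and the ribosomal protein gene Rpl23a share 506 bases. Tlcd1 had 23213, 14534 and 22664 counts and Rpl23a, which is much shorter, 4406, 2463 and 2728. Their counts per base overlapped between libraries, with a log2 ratio of 0.11 ± 0.34 (edgeR, adjusted p = 0.823). Ribosomal protein genes have near-identical processed copies elsewhere in the genome, so the counts of Rpl23a are uncertain.

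Tsr1, which acts in maturation of the small ribosomal subunit, had 1079, 602 and 504 counts, and serine racemase (Srr), which makes D-serine, had 10086, 8559 and 9124 across 1240 shared bases. Srr was 11.3-fold higher per base (log2 ratio of Tsr1 to Srr -3.49 ± 0.48; edgeR, adjusted p = 5.71e-14). Mak16, of large subunit assembly, had 1157, 611 and 656 counts, and Tti2, which helps PI3K-related kinases mature, 8260, 9711 and 9512, a log2 ratio of 2.13 ± 0.63 for Tti2 over Mak16. Kri1, also of ribosome assembly, had 1162, 837 and 965 counts against 5046, 5102 and 5143 for the autophagy protease Atg4d, a log2 ratio of 1.58 ± 0.25. In these 3 pairs the order was the same in every library.

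The others of the 10 joined genes of quite different roles. Cox20, an assembly factor of cytochrome c oxidase whose exons lie to 91.1% in the overlap, had 3010, 3422 and 2573 counts, and the nuclear RNA-binding protein gene Hnrnpu 7785, 3936 and 4545. Hnrnpu is far longer, and Cox20 was 7.56-fold higher per base. Cntd1, a gene of meiotic crossing over, had 6494, 6319 and 5636 counts and the autophagy gene Becn1 687, 303 and 290, with 3104 bases shared. Cntd1 stood above Becn1 by 4.64 ± 0.63 on the log2 scale (SD, n = 3; edgeR, adjusted p = 5.49e-22). Ctnnb1, which encodes beta-catenin, had 764, 293 and 298 counts and the kinase family gene Ulk4 6684, 5971 and 4794. Hip1r, an endocytic adaptor, had 9359, 6201 and 7362 counts and Vps37b, of the ESCRT-I complex, 876, 267 and 363. The transporter family gene Mfsd4a had 6811, 8901 and 7307 counts and Elk4, a partner of serum response factor, 697, 360 and 296. In these last 5 pairs, too, the order per base was the same in every library. Of the 10 pairs, Tlcd1/Rpl23a, Tsr1/Srr, Hip1r/Vps37b, Elk4/Mfsd4a and Cntd1/Becn1 also have exons opposite a further gene.

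**Figure D4:**
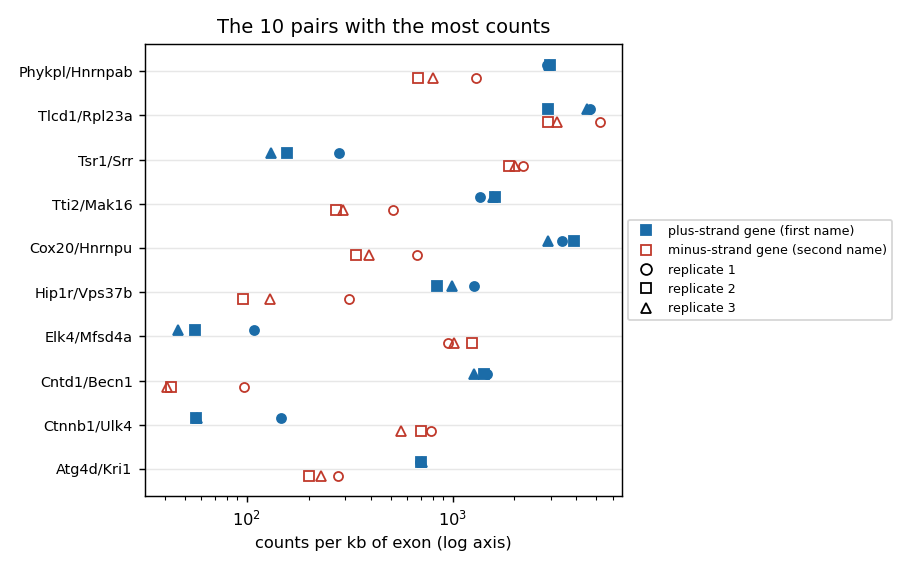
Counts per kb of exon (log axis) of both genes in the 10 pairs with the most counts, filled symbols for the plus-strand gene, open for the minus-strand gene, 1 symbol shape per library. The partners are separate in all 3 libraries in each pair except Tlcd1/Rpl23a.

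Some further pairs of high count were picked after their values were seen, because the higher partner is best known from other tissues. Myo1h, a class I myosin, had 4993, 5015 and 4287 counts and Kctd10, an adaptor of ubiquitin ligases, 313, 134 and 121. Plppr3, a membrane protein described in neurons, had 5623, 5469 and 4887 and Ptbp1, a splicing repressor, 1227, 416 and 604. Psd, a guanine exchange factor of ARF6, had 4412, 4974 and 4156 counts and Nfkb2, the NF-kappaB subunit p100, 1848, 906 and 933. The last pair shares only 4 exonic bases.

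The longest and shortest overlaps among the tested pairs covered a wide range of ratios. Pstk, a kinase of selenocysteine synthesis, and the Ikaros family gene Ikzf5 share 4652 bases. Pstk had 1486, 1595 and 1198 counts and Ikzf5 106, 33 and 43, a log2 ratio of 4.25 ± 0.89 (SD, n = 3). Mrps25, of the mitochondrial ribosome, had 2957, 3038 and 2671 counts and the orphan nuclear receptor gene Nr2c2 413, 443 and 295, with 4590 bases shared. At the other end, Sytl3 and Ezr, the membrane and cytoskeleton linker ezrin, share 2 bases. Ezr had 1733, 750 and 1228 counts and Sytl3 11, 11 and 7, a log2 ratio of Sytl3 to Ezr of -7.27 ± 0.73. Srrm2, a splicing factor, had 5627, 3927 and 2992 counts and Elob, of elongin, 162, 49 and 60. Palm3 had 1302, 2180 and 1659 counts and Il27ra, a receptor chain for interleukin 27, 364, 152 and 156. Treh, the trehalase gene, had no count, which at the limit of 3 counts allows up to 0.675, 0.960 and 1.02 CPM, and no fold is given for it.

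The largest and the smallest ratios were looked up next. Only pairs with at least 10 counts for both genes in every library were ranked, 550 in all. Tdrkh, of the piRNA pathway, had 46, 19 and 13 counts and the antizyme gene Oaz3 1192, 1630 and 1165, a log2 ratio of -6.34 ± 1.00 (SD, n = 3). Mybbp1a, a nucleolar protein, had 1807, 755 and 945 counts and the sphingosine 1-phosphate transporter gene Spns2 32, 12 and 11, a log2 ratio of 5.52 ± 0.30. Ncaph2, of condensin II, had 1935, 878 and 1254 and thymidine phosphorylase (Tymp) 10, 13 and 22. The largest ratio involved Gm17651, a model of only 36 exonic bases, which makes its count per base hard to compare. Near equality, Med19, a Mediator subunit, and the palmitoyltransferase gene Zdhhc5 had 355, 204 and 229 and 863, 480 and 559 counts, which is a log2 ratio per base of 0.03 ± 0.03.

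T cell genes were found on both the higher and the lower side. Of 109 T cell genes looked up, 12 lay in tail-to-tail pairs, in 10 pairs, all tested. In 8 pairs only 1 partner was on the list. The T cell gene was higher in 3 called pairs, lower in 4, and 1 pair was not called, so 7 of 8 were called against the background of 81.4%. The median log2 ratio of T cell gene to partner was -0.31.

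The higher ones were Junb, Jak1 and Cd247. Junb, an AP-1 factor, had 1955, 804 and 1408 counts and the peroxiredoxin gene Prdx2 63, 38 and 22, a log2 ratio of 5.51 ± 0.80 for Junb over Prdx2 (SD, n = 3; edgeR, adjusted p = 1.62e-28). Jak1, a kinase of cytokine receptors, had 2877, 1476 and 1127 counts and Raver2 50, 66 and 45, with 4 bases shared, a log2 ratio of 4.79 ± 0.74. Both pairs also have exons opposite a further gene, as do the pairs of Dgka, Plcg1 and Nfatc3 and the pair Stat6/Nab2 below. Cd247, the CD3 zeta chain, had 2126, 1872 and 1406 counts and the octamer factor gene Pou2f1 1245, 1784 and 1216, with 3007 bases shared. Per base Cd247 was 3.97-fold higher (edgeR, adjusted p = 1.73e-06).

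The lower ones were Il12rb2, Dgka, Plcg1 and Nfatc3. Il12rb2, the receptor chain that marks Th1 responsiveness to interleukin 12, had 79, 117 and 62 counts, and Serbp1, an mRNA-binding protein, 4824, 2197 and 2650, with 1519 bases shared. The log2 ratio of Il12rb2 to Serbp1 was -2.78 ± 0.87 (SD, n = 3; edgeR, adjusted p = 2.96e-10), and Il12rb2 alone of the 2 was highest in replicate 2. Dgka, a lipid kinase that dampens T cell receptor signals, had 1952, 701 and 878 counts and Pmel, a pigment cell gene, 2264, 1157 and 2503, where Pmel was higher per base by 1.87 ± 0.65 on the log2 scale. No count was found for the other pigment cell genes Tyr, Dct and Mlana. The other marker of a foreign cell type in a tested pair was Csf1r, a receptor of macrophages. It had 1802, 1179 and 1455 counts against 353, 138 and 130 for Hmgxb3 on the other strand, while the macrophage genes Adgre1 and Itgam had 1, 0 and 0 and 2, 1 and 0. Plcg1 and Nfatc3 of calcium signalling lay below Zhx3 and Esrp2 at -1.09 ± 0.81 and -2.46 ± 1.13.

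In 2 pairs both partners are on the T cell list. Stat6, which transmits interleukin 4 signals, had 2087, 975 and 1066 counts and Nab2, a corepressor of EGR factors, 2784, 1392 and 1616, over 40 shared bases. Nab2 was 2.13-fold higher per base, with a log2 ratio of Stat6 to Nab2 of -1.09 ± 0.09 (SD, n = 3; edgeR, adjusted p = 0.00745), and the 3 libraries lay close together. Stat5a, a mediator of interleukin 2 signals, had 423, 217 and 177 counts and Stat3, of interleukin 6 signals, 893, 374 and 406, over 72 shared bases. Their log2 ratio was -0.60 ± 0.21, negative in all 3 libraries, and was not called (edgeR, adjusted p = 0.159). Ptgdr2, a prostaglandin D2 receptor, and Ccdc86 were not called either, at 0.46 ± 0.33.

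**Figure D5:**
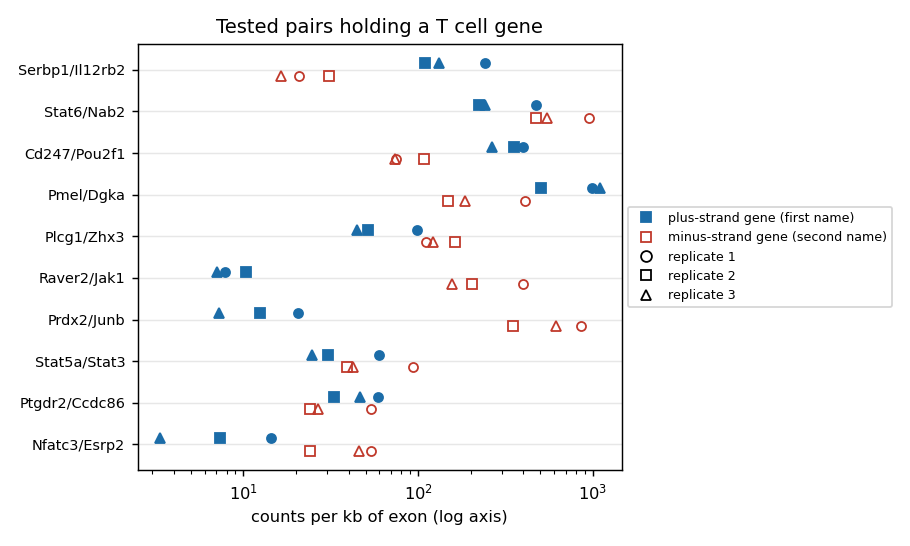
Counts per kb of exon (log axis) of both genes in the 10 tested pairs that hold a T cell gene, filled symbols for the plus-strand gene, open for the minus-strand gene, 1 symbol shape per library. Prdx2/Junb and Raver2/Jak1 are the widest pairs, and the symbols of Stat5a/Stat3 overlap.

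Genes of RNA and protein synthesis, taken by the start of their symbol, were members of 44 pairs, all tested and each with 1 such gene. The listed gene was higher per base in 21 called pairs and lower in 13, with 10 not called. So 34 of 44 were called, against the background of 81.4%, and the median log2 ratio of listed gene to partner was 0.58. The symbol start also took in 5 genes outside the named classes, such as the kinase genes Rps6kb1 and Rps6kb2.

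The list was also read by class, with classes set apart after the values were seen and no test between them. These counts of 3 to 7 genes stand beside the background of 81.4% of pairs called, with the shorter partner higher in 56%. Of 7 cytosolic ribosomal protein genes, 6 were higher than their partner and Rpl23a was not called. The uncertainty from processed copies, given above for Rpl23a, holds for all 7. Of 6 mitochondrial ribosomal protein genes, 4 were higher, 1 was lower and 1 was not called, and of 3 proteasome genes 2 were higher and 1 was lower. Rpl31 had 1660, 483 and 768 counts against 309, 200 and 262 for Tbc1d8, and Rpl32 had 5059, 2037 and 2775 against 4844, 1284 and 2189 for the much longer Cand2. The hnRNP genes Hnrnpab, Hnrnpu and Hnrnph3 were all lower than Phykpl, Cox20 and Rufy2. Of 3 RNA exosome genes, Exosc9 and Exosc5 were lower than Ccna2 and Tmem91, and Exosc8 was not called. Exosc9 had 121, 47 and 43 counts and cyclin A2 (Ccna2), which drives S phase and mitosis, 521, 346 and 462. Of 5 RNA polymerase genes, 2 were lower than the partner and 3 were not called. Among genes of translation initiation, Eif5b and Eif4a2 were higher than Rev1 and Rfc4 by 3.06 ± 0.19 and 3.62 ± 0.52 on the log2 scale (SD, n = 3). Eif2d was 2.64-fold higher than Rassf5, and Eif3j1 was not called against Spg11, at 0.38 ± 0.22 (edgeR, adjusted p = 0.391).

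Variation of single members between the libraries was compared with the general trend. Of 9469 genes with enough counts, 24 (0.253%) lay beyond edgeR's dispersion trend after Benjamini-Hochberg adjustment, and 0 of the 1179 members among them did. At an unadjusted p under 0.05 there were 52 members and 610 genes in all, and DESeq2 marked 0 members as outliers. Without replicate 1 the number of members beyond the trend was 1, Mxd3. The count of 0 is read no further, since the background share is itself small.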

How the data were processed

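The authors deposited 1 table per library with whole counts of read pairs per gene, exon coordinates and exon length. Per the file headers, featureCounts 1.4.6-p4 assigned read pairs to GENCODE vM13 exons on mm10 with both reads aligned and strand setting 1, after stranded paired-end alignment (star2). The 3 libraries formed 1 group, and total counts were 2950658 to 4442901. Symbols and biotypes came from GENCODE vM21, matched by gene identifier for 50376 of 50600 genes.

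Here, exons were merged per gene and pairs built from the files' coordinates. TPM used the deposited counts and exon length. Partners were compared in edgeR 4.0.16 (R 4.3.3, quasi-likelihood): each pair was a row with 6 columns, the offset was library total times exon length, and library was a term, because both partners are read in the same library. All opposite-strand pairs with a summed count of 30 or more entered, and p-values were adjusted over all of them. The dispersion of a pair drew on all of them as well. Stat6/Nab2 and Plcg1/Zhx3, at log2 ratios of -1.09 ± 0.09 and -1.09 ± 0.81, thus had similar adjusted p-values (edgeR, 0.00745 and 0.00868). On simulated counts for the 2984 pairs, partners were equal except in 100 pairs set 2-fold and 100 set 4-fold apart. Of these, 15% of the 2-fold and 75% of the 4-fold differences were recovered, with 2 false calls. In the data 81.4% of the pairs were called, so these rates need not hold for the reported test. Spread between libraries used the edgeR deviance at the trended dispersion (TMM, filterByExpr at 10) against chi-square with 2 degrees of freedom. Simulated on 9469 genes, it recovered 51% of 4-fold and 94% of 8-fold changes of 1 library, with 3 false calls. Log2 ratios of counts per base add 0.5 to each count. DESeq2 1.42.0 and limma 3.58.1 served as alternatives.

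Named were the 10 pairs with most counts, the 6 longest and 6 shortest overlaps, the 6 largest and 6 smallest ratios with at least 10 counts for both genes in every library, pairs with a listed T cell or foreign cell marker gene, and members beyond the dispersion trend. From the first 3 of these rules the few that show the range are printed. Ends are printed for the first 5 pairs. The members and gene lists were chosen with earlier results of these data known. Floors and intervals cover counting error only.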

Additional observations from a re-analysis of the deposited data

How the results depend on the processing

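The share of tested pairs called was 66.7% to 73.5% over 10 alternatives that keep all libraries (DESeq2, limma, no library term with either scaling, 3 filters on counts, 3 sets of members), and 72.6% with no replicate block. It was 52.2% to 76.5% when 1 library was left out, lowest without replicate 3. The share of pairs with the shorter partner higher, 57.4% as reported, was 56.9% with a minimum pair count of 10, 59.4% with no filter, 60.0% without pairs that oppose a further gene, 56.6% with an overlap of 50 or more bases and 55.6% without gene models named Gm or Rik. Spearman's rho between partners, 0.45 as reported, was 0.34 at a minimum of 100 counts and 0.61 with no filter. The median log2 ratio (1.82 to 2.03) and rho with overlap length (0.17 to 0.22) moved by less than the spread between libraries under each alternative. The differences from convergent neighbours (1.63 to 3.38) and head-to-head genes (0.66 to 1.05) kept their sign under each alternative. With only genes that had a count, the former was 1.63, and with gaps up to 10000 bases 3.38. The number of members beyond the dispersion trend was 0 to 1 when 1 library was left out. The 1, Mxd3, was called without replicate 1 and had 650, 263 and 777 counts. The cause of these changes was not tested. With a minimum of 10 counts 494 of 700 pairs were called, and with no filter 488 of 732. The 36 pairs without a count allow no comparison at this depth.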
